A study of Homo sapiens with 6 samples.

Results

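The sterol and fatty acid synthesis genes are described here in TOV21G cells, in 3 sets. They are 17 genes of sterol synthesis, 10 genes that make, elongate or desaturate fatty acids, and 4 genes grouped as SREBP regulators. Of these, SREBF1 and SREBF2 encode SREBP, the transcription factors that control both branches, and INSIG1 and SCAP regulate SREBP. The 31 genes were chosen by symbol, and all 31 were found among the 16910 genes of the table. All of them also passed the filter on low counts, which kept 13235 genes. The table appends its Ensembl identifier to the symbol of ACACA, as it does for 89 genes, so 30 members were matched by symbol and ACACA by identifier. Reads of ACACA could be split with another copy of the gene, and HSD17B7 and FDPS have near-identical pseudogenes, so their levels are uncertain in that respect.

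TOV21G is an established human line of ovarian clear cell carcinoma. The study knocked down GYS1, which encodes the glycogen synthase of muscle and many other tissues, to learn its function in these cells. RNA was sequenced from 6 libraries in 3 groups of 2. The siGYS1 group carries the genotype label GYS1 knock down, the sip53 group carries the label p53 knock down, and the NC group carries the label WT. NC is taken as the control transfection of both knockdowns, which therefore share their control libraries. The siRNA sequences, the time after transfection and whether the 2 libraries of a group came from separate cultures are not stated in the labels, and p-values measure only the spread between these libraries.

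The libraries held 17425000 to 18097337 reads, of which the 31 genes took 0.259% to 0.278%, and the 13 mitochondrially encoded protein genes took 4.81% to 6.0%. GYS1 stood at 1.69 and 1.67 FPKM in siGYS1 and at 28.6 and 27.3 FPKM in NC, and fell to 6.29% of NC by counts (log2 fold change -3.99, SE 0.11, edgeR adjusted p = 1.28e-07). FPKM are fragments scaled by transcript length and sequencing depth. The level of the gene targeted in sip53 is not reported here. Of 11 epithelial markers 10 averaged above 1 FPKM, while EPCAM and CDH1 were low at 0.73 to 4.97 FPKM and ESRP1 was listed at 0 in both NC libraries. The summed level of the epithelial markers was 311 to 369 FPKM in siGYS1, 382 to 401 FPKM in sip53 and 479 to 512 FPKM in NC. The clear cell carcinoma markers, of which 12 of 13 have a row, summed to 3096 to 3377 FPKM in siGYS1, 1053 to 1182 FPKM in sip53 and 3855 to 4034 FPKM in NC, most of it SPP1. Fibroblast markers summed to 12.3 to 22.9 FPKM and leukocyte markers to 10.6 to 15.0 FPKM over the 6 libraries, with COL3A1, FAP and TYROBP at 0 to 0.19 FPKM. Most of these sums came from COL1A1 at 7.63 to 14.7 FPKM, CORO1A at 5.13 to 10.2 FPKM and CD68 at 3.58 to 6.48 FPKM. DCN, also a fibroblast marker, was at 0.24 and 0.33 FPKM in siGYS1, 4.47 and 3.12 FPKM in sip53 and 0.31 and 6.97 FPKM in NC. By counts DCN rose in sip53 (log2 fold change 4.23, SE 0.40, edgeR adjusted p = 2.88e-05). The FPKM do not show this rise, since NC replicate 2 was above both sip53 libraries. Endothelial markers summed to 3.67 to 4.11 FPKM in siGYS1, 9.42 to 9.91 FPKM in sip53 and 3.92 to 4.43 FPKM in NC, mostly TIE1, and VWF was at 0 to 0.01 FPKM.

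Sterols and fatty acids are both built from acetyl-CoA in the cytosol and the endoplasmic reticulum. SREBP proteins are made as membrane precursors bound to SCAP, which carries them to the Golgi for cleavage when membrane sterol is low. INSIG1 holds SCAP in the endoplasmic reticulum when sterol is high, and is itself an SREBP target, so it usually moves with the enzymes. SREBF2 is best known for driving the sterol enzymes and SREBF1 for the fatty acid enzymes, in both cases together with the factors NF-Y and Sp1, whose sites lie next to the sterol regulatory element. Clear cell carcinomas of the ovary are known for their glycogen and lipid stores.

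The promoters below belong to members on which the results turn. INSIG1 (chr7:155297628-155297877, plus strand) is the gene with the highest fold change in both knockdowns, and SREBF2 (chr22:41832855-41833104, plus strand) has the only window with the searched sterol regulatory element. LSS (chr21:46228775-46229024, minus strand) and TM7SF2 (chr11:65111622-65111871, plus strand) changed the same way in both knockdowns. MVK (chr12:109573544-109573793, plus strand) and EBP (chrX:48521558-48521807, plus strand) had the lowest fold changes of the sterol branch in sip53. Each line gives the 250 bases before the RefSeq start of the gene in GRCh38.p14, 5′ to 3′ on the gene's strand, with capitals for the NF-Y word CCAAT, which reads ATTGG on the other strand, the E-box word CACGTG and the sterol regulatory element word TCACNCCAC.
INSIG1: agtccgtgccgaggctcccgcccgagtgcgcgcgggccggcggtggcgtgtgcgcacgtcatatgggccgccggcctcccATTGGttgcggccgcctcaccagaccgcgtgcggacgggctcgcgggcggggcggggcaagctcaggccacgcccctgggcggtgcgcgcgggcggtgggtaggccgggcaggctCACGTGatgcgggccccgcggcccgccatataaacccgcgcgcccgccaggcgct
SREBF2: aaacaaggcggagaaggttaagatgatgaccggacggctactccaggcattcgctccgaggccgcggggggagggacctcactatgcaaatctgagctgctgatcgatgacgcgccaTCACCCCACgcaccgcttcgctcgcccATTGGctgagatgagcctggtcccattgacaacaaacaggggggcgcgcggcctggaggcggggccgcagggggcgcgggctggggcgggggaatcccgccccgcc
LSS: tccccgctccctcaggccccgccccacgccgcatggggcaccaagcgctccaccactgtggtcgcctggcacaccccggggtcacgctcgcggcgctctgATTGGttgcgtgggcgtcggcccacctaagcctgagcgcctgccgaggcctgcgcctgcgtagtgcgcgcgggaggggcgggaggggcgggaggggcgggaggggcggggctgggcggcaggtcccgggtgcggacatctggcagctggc
TM7SF2: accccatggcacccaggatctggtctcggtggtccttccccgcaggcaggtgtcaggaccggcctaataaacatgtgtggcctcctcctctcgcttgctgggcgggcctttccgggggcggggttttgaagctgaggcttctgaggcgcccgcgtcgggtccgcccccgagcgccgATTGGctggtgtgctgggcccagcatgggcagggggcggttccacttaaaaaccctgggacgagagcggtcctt
MVK: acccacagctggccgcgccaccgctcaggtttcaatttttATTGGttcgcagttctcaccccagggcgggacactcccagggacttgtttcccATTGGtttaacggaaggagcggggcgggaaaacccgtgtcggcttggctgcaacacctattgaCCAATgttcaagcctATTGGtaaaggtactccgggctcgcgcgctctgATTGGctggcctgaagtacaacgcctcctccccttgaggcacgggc
EBP: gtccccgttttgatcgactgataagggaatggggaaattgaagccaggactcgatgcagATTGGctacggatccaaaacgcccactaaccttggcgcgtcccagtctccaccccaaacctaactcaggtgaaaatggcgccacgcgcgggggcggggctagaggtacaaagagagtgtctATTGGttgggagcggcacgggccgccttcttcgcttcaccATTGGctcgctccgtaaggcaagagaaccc

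Most windows of the sterol branch held the NF-Y word, and most held the Sp1 word. RefSeq promoter windows were found for 28 of the 31 genes, leaving FDFT1, SQLE and FASN. CCAAT, searched on both strands, was in 15 of 20 sterol windows (75.0%), which come from 15 genes of which 13 had it, and in 8 of 15 fatty acid windows, against 32.0% of the 35116 RefSeq windows of the same length. The Sp1 word GGGCGG was in 18 of 20 sterol windows, 11 of 15 fatty acid windows and all 4 regulator windows, against 42.6% of RefSeq windows. Windows of 1 gene can share sequence, and overlapping matches were counted separately.

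MVK held 5 NF-Y words, MVD 3, EBP 3 and TM7SF2 1, while PMVK and CYP51A1 held none. NSDHL, MSMO1 and FDPS, which were not called lower, also held several. A link between these words and the changes was not tested. TCACNCCAC was found only in SREBF2, 133 bases before the start and followed by an NF-Y word at 106 bases, against 0.883% of RefSeq windows. The E-box word, which SREBP can also bind, was in both SC5D windows, in ELOVL5, in INSIG1 at 55 bases and in SCAP at 58 bases, against 6.35% of RefSeq windows. These are matches of letters, and a window without a match says nothing of the factor.

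**Figure D1:**
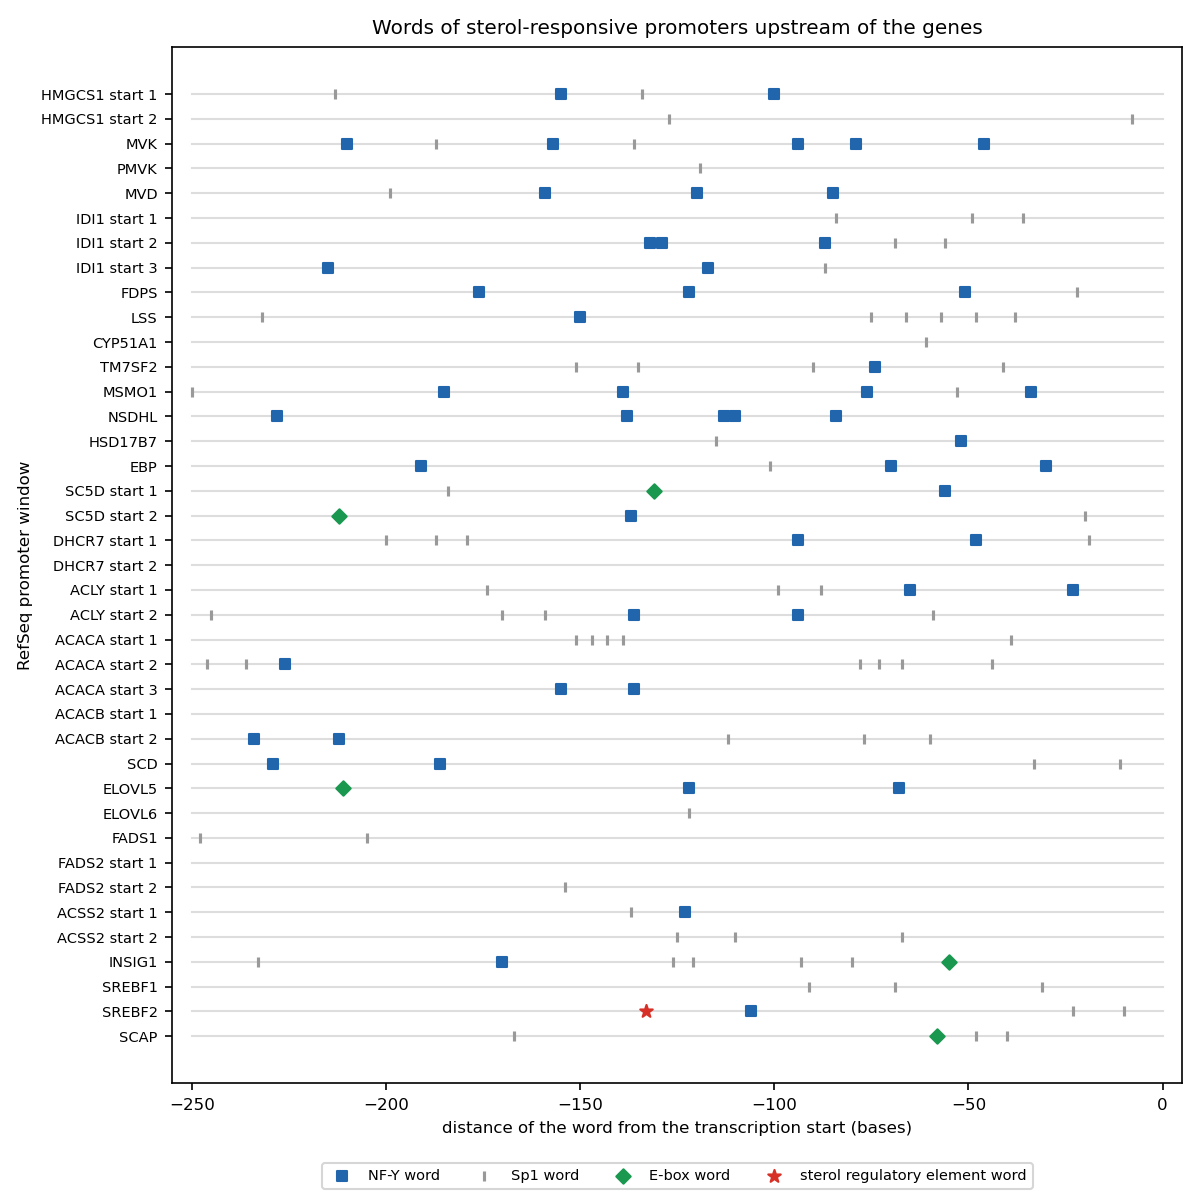
Positions of 4 promoter words in the 250 bases before the transcription start of 28 genes, 1 line per RefSeq window, with the distance from the start in bases on the horizontal axis. NF-Y words (squares) are in 15 of 20 sterol windows, and the star marks the 1 sterol regulatory element word, in SREBF2.

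The members spanned a wide range of levels in the control libraries. FDPS, which makes farnesyl diphosphate, was highest at 150 ± 4.3 FPKM in NC (SD, n = 2), ahead of FADS2 at 92.1 ± 0.43 and ELOVL5 at 86.1 ± 0.29 FPKM. ACLY at 60.8 ± 4.3 and FDFT1 at 55.0 ± 1.1 FPKM came next, and SCD at 47.9 ± 2.6 and INSIG1 at 43.7 ± 3.7 FPKM overlapped each other. At the low end stood HSD17B7 at 7.76 ± 0.91, MVK at 4.11 ± 0.035 and ACACB at 1.5 ± 0.014 FPKM, with no overlap between these neighbours. The low reads of MVK and ACACB make their fold changes the least precise of the set.

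**Figure D2:**
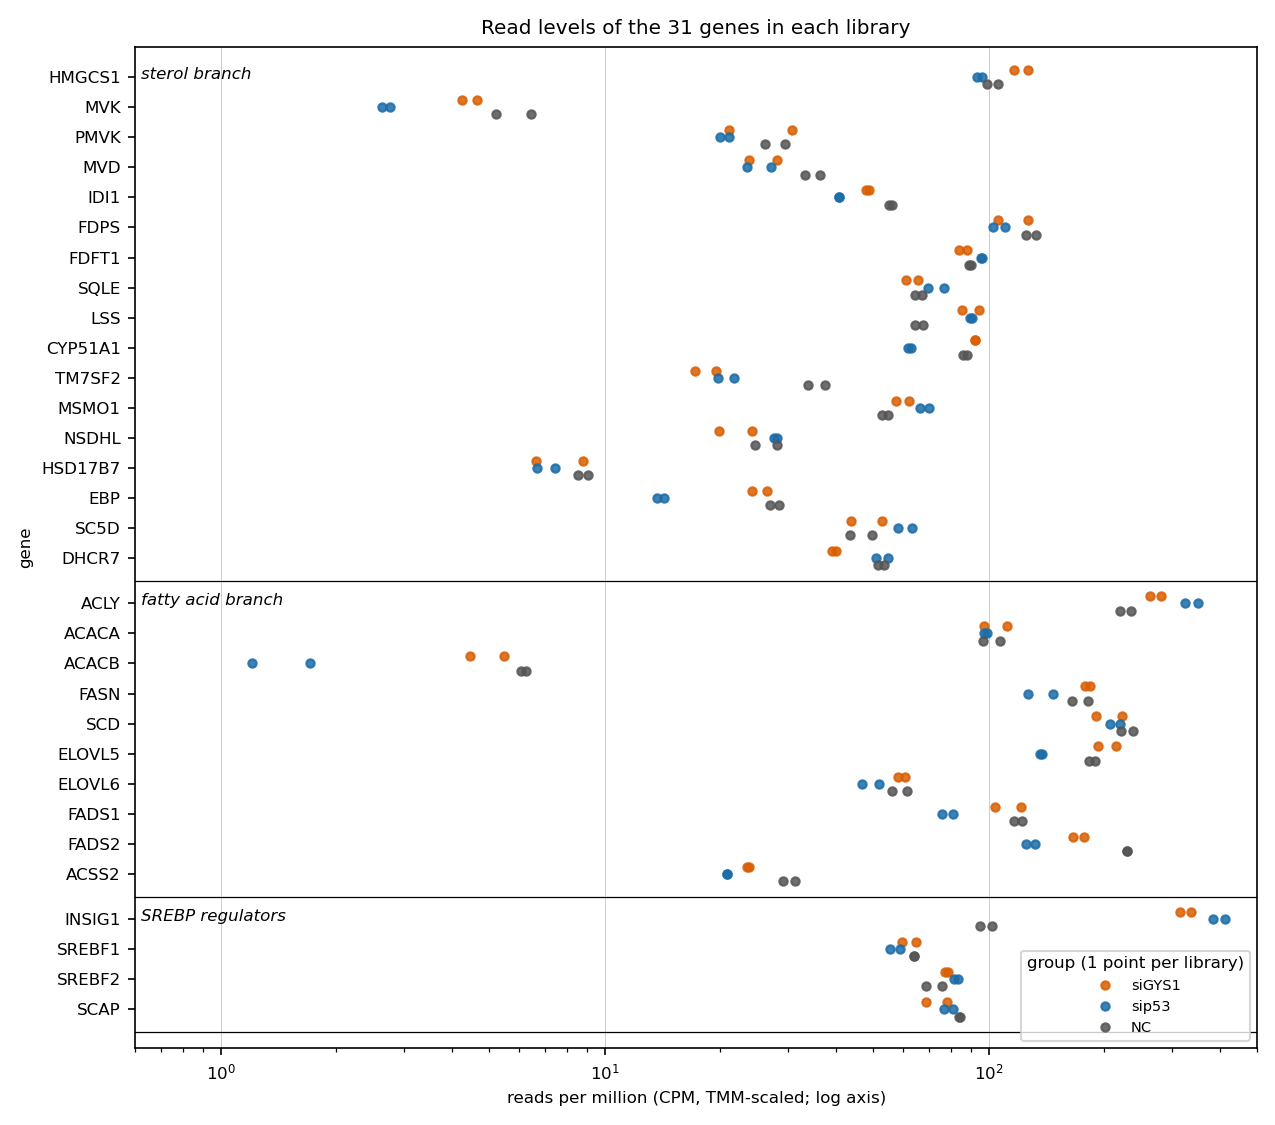
CPM, reads scaled by TMM to a common depth, of the 31 genes in each of the 6 libraries on a log axis, 1 point per library, with siGYS1 above sip53 above NC. INSIG1 lies at 314 and 337 CPM in siGYS1 and 413 and 384 CPM in sip53, above 102 and 94.8 CPM in NC, and ACACB in sip53 lies at 1.21 and 1.71 CPM.

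Relative to NC, 2 of the 31 genes rose and 5 fell in siGYS1, against 10.4% of all tested genes higher and 9.24% lower. In sip53, 5 rose and 13 fell, against 23.4% of all tested genes higher and 26.5% lower. The falls make up 16.1% of the members in siGYS1 and 41.9% in sip53, above the share of all genes, and the rises make up 6.45% in siGYS1 and 16.1% in sip53, below it. In siGYS1 the lean to falls was not kept with DESeq2 (3 members higher, 3 lower), with limma on log2(FPKM + 0.1) (2 higher, 2 lower), with limma on log2(FPKM + 1) without a filter (2 higher, 0 lower), or without either NC library (2 higher and 2 lower without replicate 1, 1 and 1 without replicate 2). In sip53, where more members fell, the summed clear cell carcinoma markers were also lowest and the endothelial markers highest. The low clear cell carcinoma sum came mostly from SPP1, at 726 and 612 FPKM in sip53 against 3396 and 3578 FPKM in NC. Of 10 tested clear cell carcinoma markers, 4 rose and 3 fell in sip53. The part of these markers in the falls was not tested. The median log2 fold change of the 31 genes was -0.08 in siGYS1 and -0.25 in sip53, beside -0.01 and -0.03 over all tested genes. On the log2(FPKM + 1) scale the split of all called genes shifted towards falls, with 619 higher and 1184 lower in siGYS1 and 2056 higher and 3716 lower in sip53, where counts gave 1379 and 1223 in siGYS1 and 3103 and 3502 in sip53, and DESeq2 gave 1398 and 799 in siGYS1. In bulk RNA, fewer cells of a type and less RNA per cell cannot be told apart.

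INSIG1, the sterol-regulated anchor of SCAP, rose in both knockdowns and was the member with the highest fold change in each. It stood at 137 and 139 FPKM in siGYS1, at 170.0 and 154 FPKM in sip53 and at 46.4 and 41.1 FPKM in NC. Every knockdown library was far above both NC libraries, and the sip53 libraries were above the siGYS1 libraries. By counts this was 3.30 times NC in siGYS1 (log2 fold change 1.72, SE 0.09, edgeR adjusted p = 1.5e-05) and 4.05 times NC in sip53 (2.02, SE 0.09, edgeR adjusted p = 4.01e-07). In sip53 the level of INSIG1 was above that of FDPS, the highest member in NC, which read 112 and 117 FPKM there.

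The other regulators did not pass the test in either knockdown. SREBF1 was at 16.5 and 18.3 FPKM in siGYS1, 13.7 and 15.0 FPKM in sip53 and 18.1 and 18.2 FPKM in NC. Its log2 fold change was -0.04 in siGYS1 (95% interval -0.24 to 0.16) and -0.16 in sip53 (-0.37 to 0.04), and on the log2(FPKM + 1) scale it was called lower in sip53. SREBF2 was at 15.5 and 15.9 FPKM in siGYS1, 15.9 and 16.3 FPKM in sip53 and 16 and 14.3 FPKM in NC. Its intervals were -0.09 to 0.31 in siGYS1 and -0.01 to 0.39 in sip53. SREBF2 was called higher in sip53 with the compared groups alone and when replicate number was added to the fit. SCAP was at 19.2 and 21.2 FPKM in siGYS1, 20.0 and 20.9 FPKM in sip53 and 23.4 and 23.6 FPKM in NC. Both SCAP groups lay below NC, with log2 fold changes of -0.20 (interval -0.41 to 0.01) in siGYS1 and -0.09 (-0.30 to 0.12) in sip53. Neither was called in the main fit, and SCAP was called lower in siGYS1 with offsets corrected for transcript length.

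In the sterol branch 1 of 17 genes rose (5.88%) and 3 fell (17.6%) in siGYS1, beside 10.4% and 9.24% of all tested genes. In sip53 3 rose (17.6%) and 7 fell (41.2%), beside 23.4% and 26.5% of all tested genes. The median log2 fold change was -0.13 in siGYS1 and -0.28 in sip53. LSS, which closes squalene epoxide into lanosterol, rose in both. It was at 24.1 and 25.4 FPKM in siGYS1, 22.4 and 23.0 FPKM in sip53 and 18.7 and 17.03 FPKM in NC, so that all 4 knockdown libraries were above both NC libraries. Its log2 fold change was 0.45 in siGYS1 (SE 0.09, edgeR adjusted p = 0.00927) and 0.45 in sip53 (SE 0.09, edgeR adjusted p = 0.00276).

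TM7SF2, a sterol C14 reductase, had the lowest fold change of the branch in siGYS1. It was at 15.5 and 18.1 FPKM in siGYS1, 22.3 and 16.02 FPKM in sip53 and 30.7 and 33.0 FPKM in NC. The 4 knockdown libraries were below both NC libraries, and the siGYS1 and sip53 values interleaved in FPKM. In CPM they did not, with 17.2 and 19.5 in siGYS1 and 21.8 and 19.8 in sip53. TM7SF2 fell to 51.5% of NC in siGYS1 (log2 fold change -0.96, SE 0.11, edgeR adjusted p = 0.000559) and to 58.3% of NC in sip53 (-0.78, SE 0.11, edgeR adjusted p = 0.000288). LBR, the lamin B receptor, which has the same reductase activity and is no member, was at 47.7 and 40.8 FPKM in siGYS1, 23.4 and 22.8 FPKM in sip53 and 34.7 and 31.1 FPKM in NC. It rose in siGYS1 (0.48, SE 0.10, edgeR adjusted p = 0.0103) and fell in sip53 (-0.42, SE 0.10, edgeR adjusted p = 0.00702).

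MVK, PMVK and IDI1 were called lower in sip53, and MVD in both knockdowns. MVK, mevalonate kinase, was at 3.22 and 3.41 FPKM in siGYS1, 2.27 and 1.72 FPKM in sip53 and 4.13 and 4.08 FPKM in NC, with no overlap between the 3 groups. It fell to 46.3% of NC in sip53 (log2 fold change -1.11, SE 0.19, edgeR adjusted p = 0.000916) and was not called in siGYS1 (-0.39, SE 0.17, edgeR adjusted p = 0.143). MVD, the mevalonate diphosphate decarboxylase, was at 20.1 and 22.3 FPKM in siGYS1, 18.6 and 19.8 FPKM in sip53 and 27.5 and 30.1 FPKM in NC. Both knockdowns lay below NC, by -0.42 in siGYS1 (SE 0.12, edgeR adjusted p = 0.0316) and -0.46 in sip53 (SE 0.12, edgeR adjusted p = 0.0091). In sip53 the isomerase IDI1 fell by 0.45 on the log2 scale, at 16.1 and 16.1 FPKM in sip53 against 23.6 and 23.9 FPKM in NC. PMVK, phosphomevalonate kinase, fell by 0.44 (SE 0.16, edgeR adjusted p = 0.0424), at 28.5 and 26.7 FPKM in sip53 against 38.0 and 42.9 FPKM in NC. The PMVK call was lost with RLE factors, without a filter on low counts, with DESeq2 and with limma without a filter. In siGYS1 the PMVK libraries were split, 29.1 and 42.4 FPKM, and IDI1 was at 20.2 and 20.6 FPKM, neither called.

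HMGCS1, FDPS, FDFT1 and SQLE were not called in either knockdown. HMGCS1, which makes HMG-CoA, was at 39.6 and 36.1 FPKM in siGYS1, 28.5 and 28.0 FPKM in sip53 and 34.7 and 31.8 FPKM in NC, with log2 fold changes of 0.24 (edgeR adjusted p = 0.0863) in siGYS1 and -0.12 (0.304) in sip53. The siGYS1 libraries were above NC and the sip53 libraries below it. HMGCS1 was called higher in siGYS1 with a replicate block and with offsets corrected for transcript length. FDPS read 117 and 141 FPKM in siGYS1, 112 and 117 FPKM in sip53 and 147 and 153 FPKM in NC, with a log2 fold change of -0.28 in sip53 (edgeR adjusted p = 0.0507). FDPS was called lower in sip53 under 9 of the 16 other settings. FDFT1, squalene synthase, and SQLE, squalene epoxidase, stayed between -0.06 and 0.16 in log2 fold change.

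After lanosterol, the steps moved in both directions in sip53. CYP51A1, the lanosterol demethylase, was at 33.0 and 32.6 FPKM in siGYS1, 22.1 and 21.0 FPKM in sip53 and 32.1 and 32.0 FPKM in NC, so that only the sip53 libraries were low (log2 fold change -0.48, SE 0.08, edgeR adjusted p = 0.00114). EBP, the sterol isomerase, was at 29.2 and 31.1 FPKM in siGYS1, 16.9 and 17.04 FPKM in sip53 and 33.8 and 37.1 FPKM in NC. It fell to 50.5% of NC in sip53 (-0.99, SE 0.10, edgeR adjusted p = 4.69e-05) and was not called in siGYS1 (-0.13, edgeR adjusted p = 0.372). MSMO1, the C4 methyl sterol oxidase, rose in sip53 by 0.34 (SE 0.09, edgeR adjusted p = 0.0115), at 33.9 and 35.6 FPKM against 29.0 and 30.2 FPKM in NC. SC5D, the C5 desaturase, rose in sip53 by 0.38 (SE 0.12, edgeR adjusted p = 0.0212), at 27.3 and 24.3 FPKM against 21.8 and 19.0 FPKM in NC. NSDHL and HSD17B7, which complete the removal of the C4 methyl groups, were not called in either knockdown, with log2 fold changes of -0.26 and -0.19 in siGYS1 and 0.08 and -0.32 in sip53.

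DHCR7, a late enzyme of cholesterol synthesis, was lower in siGYS1 by counts and was not called in sip53. It had 39.0 and 40.1 CPM in siGYS1, 50.8 and 54.8 CPM in sip53 and 53.5 and 51.5 CPM in NC, where CPM are reads scaled by TMM to a common depth. The siGYS1 libraries lay below the other 4, with log2 fold changes of -0.41 in siGYS1 (SE 0.09, edgeR adjusted p = 0.0129) and 0.01 in sip53 (SE 0.09, edgeR adjusted p = 0.939). The deposited FPKM are less even, with 21.9 and 20.9 in siGYS1, 22.6 and 26 in sip53 and 36.4 and 23.6 in NC.

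**Figure D3:**
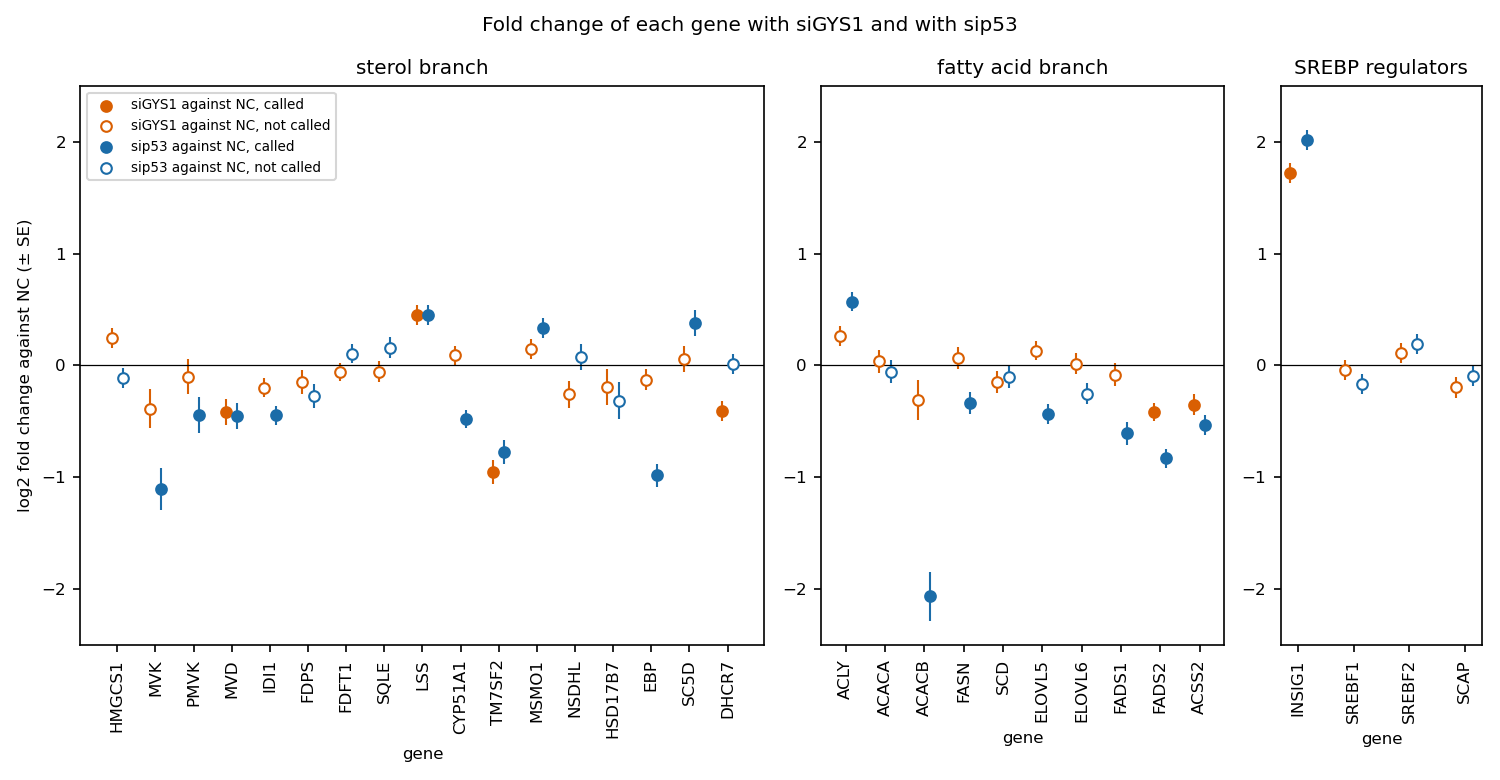
Log2 fold changes against NC, with bars of 1 SE, of the 31 genes in siGYS1 and in sip53, with filled points for an edgeR adjusted p below 0.05. INSIG1 stands at 1.72 in siGYS1 and 2.02 in sip53, apart from the other 30 genes, and ACACB is lowest at -2.07 in sip53.

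In the fatty acid branch 0 of 10 genes rose and 2 fell in siGYS1, where 10.4% of all tested genes rose and 9.24% fell. In sip53 1 rose and 6 fell, where 23.4% of all tested genes rose and 26.5% fell. The median log2 fold change was -0.03 in siGYS1 and -0.39 in sip53. FADS2, the delta-6 desaturase of polyunsaturated fatty acids, fell in both. It was at 73.0 and 76.1 FPKM in siGYS1, 49.4 and 55.0 FPKM in sip53 and 92.4 and 91.8 FPKM in NC, with no overlap between the 3 groups. It fell to 74.9% of NC in siGYS1 (log2 fold change -0.42, SE 0.08, edgeR adjusted p = 0.00862) and to 56.2% in sip53 (-0.83, SE 0.08, edgeR adjusted p = 4.49e-05). ACSS2, which makes acetyl-CoA from acetate, was at 13.3 and 12.1 FPKM in siGYS1, 10.9 and 9.95 FPKM in sip53 and 16.2 and 17.03 FPKM in NC. It also fell in both, by 0.35 on the log2 scale in siGYS1 (edgeR adjusted p = 0.0256) and by 0.53 in sip53 (edgeR adjusted p = 0.0011).

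FADS1 and ELOVL5 also fell in sip53. FADS1, the delta-5 desaturase, was at 31.6 and 26.3 FPKM in siGYS1, 20.4 and 18.6 FPKM in sip53 and 32.2 and 30.5 FPKM in NC. The sip53 libraries were lowest (log2 fold change -0.61, SE 0.10, edgeR adjusted p = 0.000879), and the siGYS1 and NC values overlapped (-0.08, edgeR adjusted p = 0.596). ELOVL5, an elongase of the same chains, was at 94.1 and 85.6 FPKM in siGYS1, 59.7 and 60.0 FPKM in sip53 and 86.3 and 85.9 FPKM in NC. It fell in sip53 by 0.44 on the log2 scale (SE 0.09, edgeR adjusted p = 0.00254). ELOVL6, which lengthens saturated chains, read 60.5 and 58.0 CPM in siGYS1, 51.7 and 46.7 CPM in sip53 and 61.1 and 56.2 CPM in NC, and was just outside the threshold in sip53 (-0.25, edgeR adjusted p = 0.0501). Its FPKM differed, with 16.43 and 14.9 in siGYS1, 11.26 and 11.52 in sip53 and 13.92 and 11.49 in NC. By FPKM the siGYS1 libraries of ELOVL6 lay above NC, and sip53 overlapped NC. SCD, which makes monounsaturated chains, was not called in the main fit, at 44.6 and 38.3 FPKM in siGYS1, 43.0 and 40.5 FPKM in sip53 and 49.8 and 46.1 FPKM in NC. With offsets corrected for transcript length, SCD was called lower in both knockdowns.

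ACLY rose and ACACB fell in sip53. ACLY, which cuts citrate into acetyl-CoA, was at 72.0 and 66.8 FPKM in siGYS1, 80.3 and 86.9 FPKM in sip53 and 63.8 and 57.8 FPKM in NC. The 3 groups did not overlap, with log2 fold changes of 0.57 in sip53 (SE 0.09, edgeR adjusted p = 0.000517) and 0.26 in siGYS1 (SE 0.09, edgeR adjusted p = 0.0615). ACLY was called higher in siGYS1 with DESeq2, with a replicate block and with offsets corrected for transcript length. ACACB, the mitochondrial acetyl-CoA carboxylase whose product restrains fatty acid oxidation, had 5.47 and 4.46 CPM in siGYS1, 1.21 and 1.71 CPM in sip53 and 6.24 and 6.06 CPM in NC. It fell to 23.9% of NC in sip53 (-2.07, SE 0.22, edgeR adjusted p = 5.92e-05) and was not called in siGYS1 (-0.31, SE 0.18, edgeR adjusted p = 0.254). Its FPKM were 1.42 and 0.73 in siGYS1, 0.51 and 0.37 in sip53 and 1.51 and 1.49 in NC, so that the siGYS1 libraries were split.

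ACACA, the cytosolic carboxylase, had 112 and 97.2 CPM in siGYS1, 97.0 and 99.1 CPM in sip53 and 107 and 96.8 CPM in NC, which overlap. Its FPKM, 16.4 and 15.5 in siGYS1 and 16.6 and 17.7 in sip53, lay below the 19.0 and 19.9 of NC. FASN, fatty acid synthase, was at 26.6 and 29.5 FPKM in siGYS1, 19.4 and 23.6 FPKM in sip53 and 25.3 and 29.2 FPKM in NC. It fell in sip53 by 0.34 on the log2 scale (SE 0.10, edgeR adjusted p = 0.0177), and in siGYS1 its log2 fold change was 0.06 (edgeR adjusted p = 0.685).

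INSIG1 and TM7SF2 were the members called in siGYS1 whichever of the 6 libraries was left out. The siGYS1 count of 7 fell to 4 without NC replicate 1 and to 2 without NC replicate 2, and was 11 without siGYS1 replicate 2; LSS and FADS2 were lost without NC replicate 2, DHCR7 without either NC library, ACSS2 without any 1 of the NC or sip53 libraries, and MVD without any 1 library other than siGYS1 replicate 2. In sip53, 13 of 18 calls held whichever library was left out. PMVK and SC5D were lost without NC replicate 2 or either sip53 library, MVD without NC replicate 2 or sip53 replicate 1, MSMO1 without NC replicate 1 or either sip53 library, and FASN without NC replicate 1 or sip53 replicate 1. With limma on log2(FPKM + 1), DHCR7 and ACSS2 were not called in siGYS1, and MSMO1, SC5D and FASN were not called in sip53.

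The direct contrast of both knockdowns tests which members differ between them. In siGYS1 relative to sip53, 11 members were higher and 5 lower, against 22.5% of all tested genes higher and 20.9% lower. The fatty acid branch had 6 of 10 higher in siGYS1, 1 lower and a median log2 difference of 0.33. The sterol branch had 5 higher, 3 lower and a median of 0.03, and over all tested genes the median was 0.01.

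The 11 genes higher in siGYS1 were led by ACACB, EBP and MVK. ACACB differed by 1.76 (95% interval 1.25 to 2.27, edgeR adjusted p = 0.000233), EBP by 0.86 (0.63 to 1.09, edgeR adjusted p = 0.000144) and MVK by 0.72 (0.29 to 1.16, edgeR adjusted p = 0.014). CYP51A1 and ELOVL5 each differed by 0.57, FADS1 by 0.53, FADS2 by 0.41 and FASN by 0.40. HMGCS1 (0.36), ELOVL6 (0.27, edgeR adjusted p = 0.0459) and IDI1 (0.25, edgeR adjusted p = 0.0412) completed the 11. HMGCS1 and ELOVL6 had been called in neither knockdown against NC in the main fit. Of the 16 other settings, the ELOVL6 call was lost in 10 and the IDI1 call in 9. Those lower in siGYS1 were DHCR7 (-0.42, edgeR adjusted p = 0.00445), NSDHL (-0.34, edgeR adjusted p = 0.0427), SC5D (-0.33, edgeR adjusted p = 0.0452), ACLY (-0.31) and INSIG1 (-0.29, edgeR adjusted p = 0.0216). The NSDHL call was lost in 8 of the 16 other settings and the SC5D call in 10.

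LSS, MVD, TM7SF2 and ACSS2, called the same way in both knockdowns, did not pass the test between them. Their differences were 0.00 (95% interval -0.20 to 0.20) for LSS, 0.03 (-0.23 to 0.30) for MVD, -0.18 (-0.43 to 0.07) for TM7SF2 and 0.18 (-0.03 to 0.39) for ACSS2. The intervals leave room for modest differences. The count of 16 was 6 without sip53 replicate 1 and 7 without sip53 replicate 2, and CYP51A1, EBP, ELOVL5, FADS1 and ACACB were called whichever library was left out. With limma on log2(FPKM + 1), DHCR7, NSDHL, SC5D and INSIG1 were not called between the knockdowns.

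**Figure D4:**
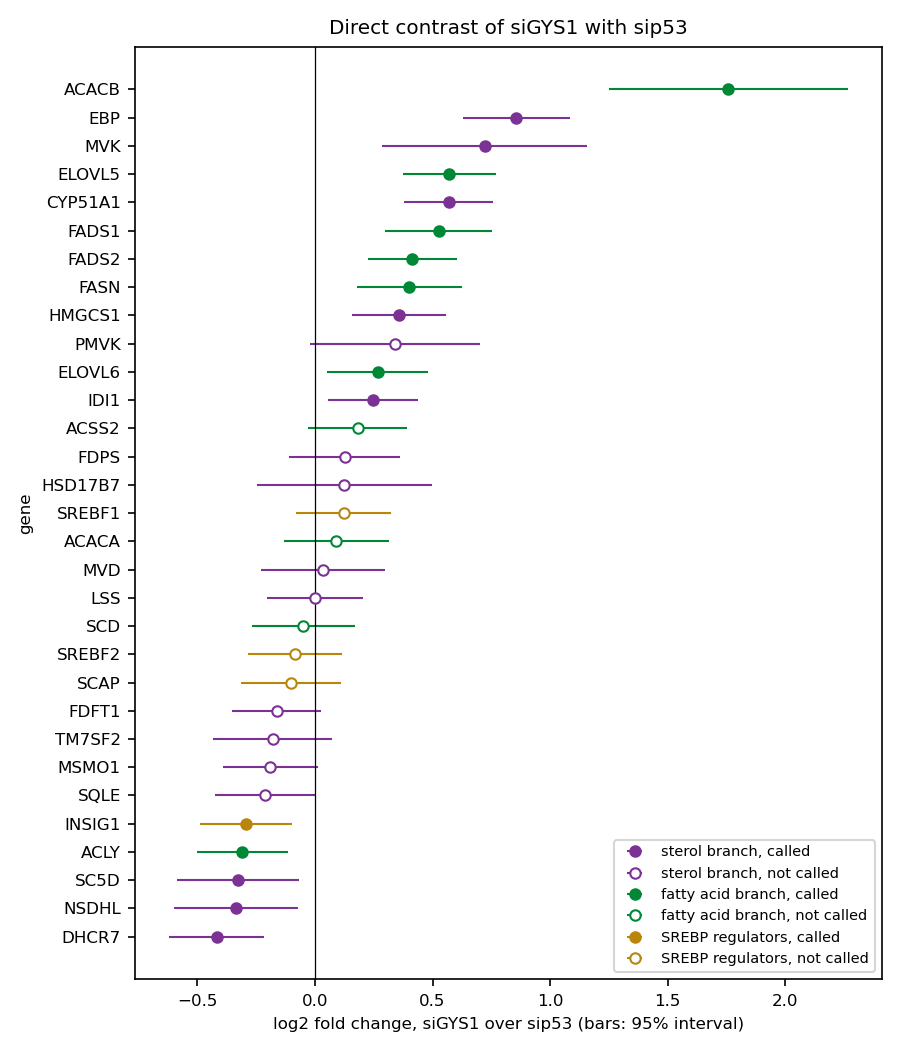
Log2 fold change of siGYS1 over sip53 for the 31 genes, ordered by size, with 95% intervals and filled points for an edgeR adjusted p below 0.05. ACACB at 1.76, EBP at 0.86 and MVK at 0.72 lead the genes higher in siGYS1, and DHCR7 at -0.42 is the lowest.

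Among 17 further genes of SREBP control, 4 rose (23.5%) and 1 fell (5.88%) in siGYS1, set against 10.4% and 9.24% of all tested genes. In sip53 8 rose (47.1%) and 2 fell (11.8%), set against 23.4% and 26.5%. INSIG2, the second anchor of SCAP, was at 5.93 and 6.35 FPKM in siGYS1, 20.4 and 18.4 FPKM in sip53 and 6.99 and 6.41 FPKM in NC. Only the sip53 libraries were high, at 3.10 times NC (log2 fold change 1.63, SE 0.10, edgeR adjusted p = 2.02e-06), whereas siGYS1 was at -0.07 (edgeR adjusted p = 0.69) and differed from sip53 by -1.70 (edgeR adjusted p = 2.34e-06). FBXW7, which marks nuclear SREBP for destruction, rose in siGYS1 by 0.65 (edgeR adjusted p = 0.00325) and was 0.76 higher than in sip53. RNF139, a ubiquitin ligase of the endoplasmic reticulum, fell in siGYS1 by 0.48. PRKAA2, a catalytic subunit of AMPK, rose in both, by 0.56 in siGYS1 and 0.79 in sip53. PAQR3, a Golgi protein that binds SCAP, rose by 0.36 in siGYS1 and 0.80 in sip53. UBXN8 was 0.74 higher in siGYS1 than in sip53.

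Of 17 tested genes of sterol uptake, transport and esterification, 4 rose and 0 fell in siGYS1, beside 10.4% and 9.24% of all tested genes. In sip53 7 of the 17 rose and 2 fell, beside 23.4% and 26.5%. NPC1, which exports cholesterol from lysosomes, was at 70.1 and 65.7 FPKM in siGYS1, 90.6 and 79.95 FPKM in sip53 and 41.7 and 39.0 FPKM in NC, without overlap. Its log2 fold change was 0.86 in siGYS1 (SE 0.09, edgeR adjusted p = 0.000445) and 1.25 in sip53 (SE 0.09, edgeR adjusted p = 7.68e-06). GRAMD1A, a sterol carrier of the endoplasmic reticulum, rose by 0.42 in siGYS1 and 0.73 in sip53. SOAT1, which esterifies cholesterol, rose by 0.39 in siGYS1 and 0.93 in sip53. TMEM97, an NPC1-binding protein, fell by 1.11 in sip53, at 6.81 and 11.4 FPKM against 19.0 and 18.9 FPKM in NC, and was 1.00 higher in siGYS1 than in sip53. VLDLR, a lipoprotein receptor, and SOAT1 were lower in siGYS1 than in sip53, at -0.66 and -0.54. GRAMD1C fell in sip53 (-2.25, SE 0.50) at a level under 1 FPKM in every library.

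Of 8 tested LXR genes and efflux genes, 1 rose (12.5%) and 3 fell (37.5%) in each knockdown. The shares of all tested genes were 10.4% and 9.24% in siGYS1 and 23.4% and 26.5% in sip53. The sterol exporter ABCG1 was at 1.81 and 1.86 FPKM in siGYS1, 2.67 and 2.18 FPKM in sip53 and 5.97 and 5.46 FPKM in NC. All 4 knockdown libraries were below NC, by -1.46 in siGYS1 (SE 0.14, edgeR adjusted p = 0.000191) and -1.08 in sip53 (SE 0.13, edgeR adjusted p = 0.000127). ABCA1, the other exporter, rose, by 0.61 in siGYS1 (edgeR adjusted p = 0.0477) and 1.10 in sip53 (edgeR adjusted p = 0.000991). CYP27A1, a mitochondrial sterol hydroxylase, fell by 0.89 in siGYS1 and 1.49 in sip53, and between the knockdowns CYP27A1 was 0.61 and MYLIP, a ubiquitin ligase for lipoprotein receptors, 0.39 higher in siGYS1. SMPDL3A was lower in siGYS1 than in sip53 (-1.37, SE 0.45), at 0.23 to 1.48 FPKM.

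In a list of isoprenoid and prenyl genes, which also holds LBR and ACAT2, 2 of 16 genes rose (12.5%) and 0 fell in siGYS1. This was near the 10.4% higher and below the 9.24% lower among all tested genes. LBR was among the rises in siGYS1. In sip53 5 rose and 6 fell (37.5%), against 23.4% and 26.5% of all tested genes. LBR and ACAT2, which act in sterol synthesis itself, were among the falls in sip53. PDSS2, which builds the coenzyme Q tail, was at 11.8 and 12.2 FPKM in siGYS1, 5.48 and 5.61 FPKM in sip53 and 14.3 and 13.5 FPKM in NC. It fell to 32.4% of NC in sip53 (log2 fold change -1.63, SE 0.10, edgeR adjusted p = 1.79e-06). ACAT2, the cytosolic thiolase that starts the mevalonate pathway, fell by 0.63 in sip53. RCE1, a protease of prenylated proteins, rose by 0.43 in siGYS1 and 0.50 in sip53. PDSS2 was 1.54, LBR 0.89 and COQ2 0.42 higher in siGYS1 than in sip53.

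Other genes of fatty acid elongation, desaturation and activation were split, with 4 of 25 tested higher and 2 lower in siGYS1 and 4 higher and 4 lower in sip53. Among all tested genes 10.4% were higher and 9.24% lower in siGYS1, and 23.4% higher and 26.5% lower in sip53, so the list was near the background in siGYS1 and below it in sip53. ACSL1, which activates long chains to their CoA esters, rose by 0.76 in siGYS1 and 1.03 in sip53. ACSL4, its relative for polyunsaturated chains, rose by 0.54 in siGYS1. ELOVL4, an elongase of very long chains, fell in siGYS1 by 0.69. In sip53 ACSL5 rose by 1.51 (SE 0.16), at 2.97 and 3.08 FPKM against 1.06 and 1.21 FPKM in NC. SCD5, a relative of SCD, was at 20.3 and 21.2 FPKM in siGYS1, 10.2 and 9.01 FPKM in sip53 and 21.8 and 20.4 FPKM in NC, and fell by 1.04 in sip53 (SE 0.10, edgeR adjusted p = 2.96e-05). ACSS1, the mitochondrial relative of ACSS2, fell by 1.51 in sip53 (SE 0.39) at levels of 0.10 to 0.36 FPKM. Between the knockdowns ACSL5 was lower (-1.22), and SCD5 (1.08) and HACD1 (0.67) were higher, in siGYS1.

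Fatty acid oxidation, the opposite pathway, had 1 of 25 genes higher and 3 lower in siGYS1, beside 10.4% and 9.24% of all tested genes. It had 5 higher and 5 lower in sip53, near or below the 23.4% and 26.5% of all tested genes. CPT1C, a carnitine palmitoyltransferase relative, fell in both, by 0.73 in siGYS1 and 1.11 in sip53, and ACAA1, a peroxisomal thiolase, fell by 0.47 in siGYS1. CPT1A, the carnitine step that malonyl-CoA inhibits, rose by 0.39 in siGYS1 and 0.28 in sip53. HADH, a mitochondrial dehydrogenase, was at 33.4 and 35.3 FPKM in siGYS1, 17.9 and 18.6 FPKM in sip53 and 33.3 and 36.3 FPKM in NC, and fell by 0.86 in sip53 (SE 0.10, edgeR adjusted p = 7.77e-05). ACADL also fell in sip53, by 1.06, at 0.30 to 0.97 FPKM over the 6 libraries. In siGYS1 relative to sip53 HADH was higher (0.89), and HADHB (-0.56) and ACADS (-1.40, SE 0.40) were lower. ACADS was low, at 0.29 and 0.84 FPKM in siGYS1 and 1.42 and 1.54 FPKM in sip53, and was called in neither knockdown against NC.

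**Figure D5:**
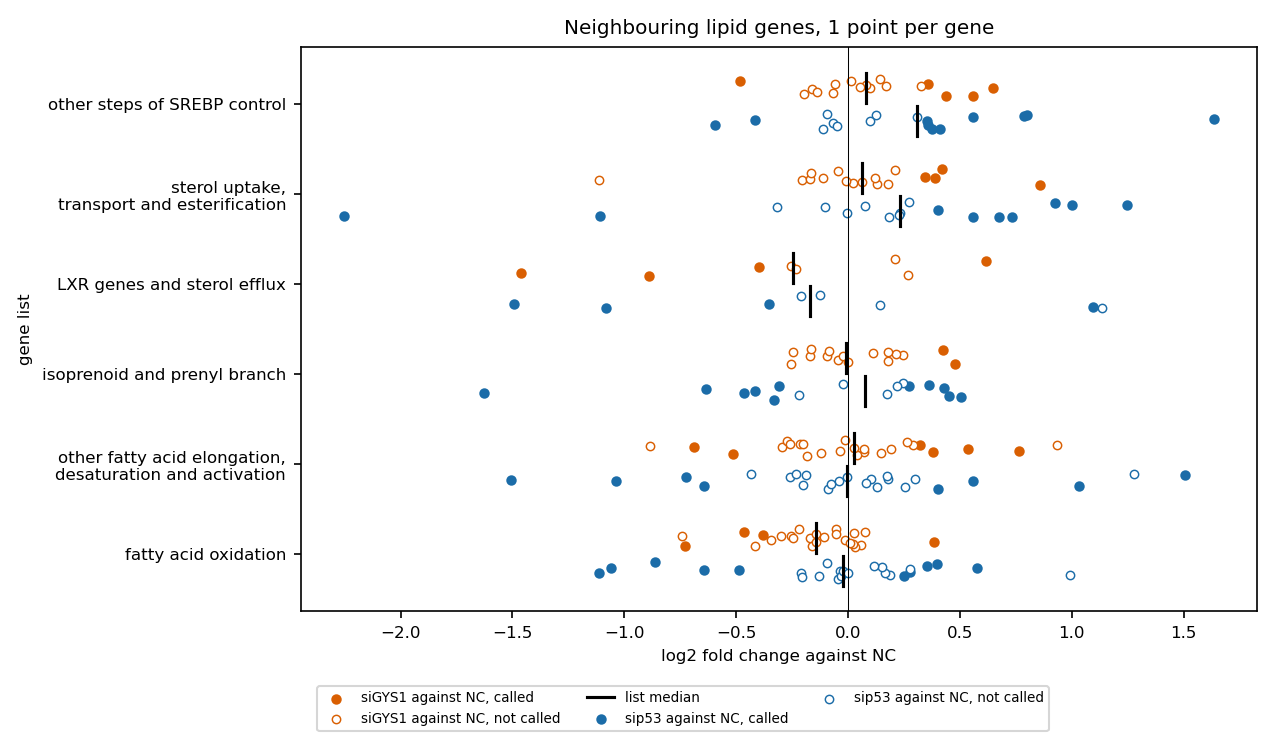
Log2 fold changes against NC of the tested genes in 6 neighbouring lipid lists, 1 point per gene, with siGYS1 above sip53 in each list, filled points for an edgeR adjusted p below 0.05 and a bar at the list median. INSIG2 at 1.63 and NPC1 at 1.25 in sip53 lead the SREBP control and sterol transport lists, and ABCG1 and CYP27A1 are low in both knockdowns.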

How the data were processed

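Poly(A) RNA of 6 TOV21G libraries was sequenced and quantified by the submitters, and 1 table of 16910 genes with human Ensembl identifiers was used. Per the file headers, each library has 4 values: FPKM, TPM, reads per gene and reads after normalization. The authors' read counts are expected counts, since 16.8% to 18.1% of them per library are not whole (tolerance 1e-09). The deposited TPM and the deposited normalized reads, a scaled signal, were not used for tests. The submitters' processing notes name HISAT2, STAR, TopHat, Salmon, HTSeq and featureCounts among other tools, with no role or version. The notes name a mouse build (mm10), yet all identifiers are human. Strand-specific counting is not stated, so overlapping and antisense genes may share reads.

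Expected counts were rounded and tested with edgeR 4.0.16 under R 4.3.3, using filterByExpr (minimum count 10), TMM factors and the quasi-likelihood test, all 6 libraries in 1 fit with group as the only term and 3 residual degrees of freedom. A gene was called at a Benjamini-Hochberg adjusted p below 0.05 over the 13235 tested genes, and "rose" and "fell" are used of called genes. The SE is that of the log2 fold change. The procedure was tested on simulated data. Alternatives were RLE factors, no filter, DESeq2 1.42.0, limma 3.58.1 on log2(FPKM + 1) and log2(FPKM + 0.1), the compared groups alone, a replicate block, offsets corrected for transcript length, and each library left out. The ratio of FPKM to counts varied between libraries for some genes (1.47 times between the highest and lowest library for DHCR7, 2.66 times for ACACB), so FPKM and count fold changes can differ. Promoter windows came from RefSeq (GRCh38.p14). The members and gene lists were chosen with earlier results of these data known, and genes outside the members were named as up to 3 called genes with the largest change per list and comparison. The values of LBR, ACSL1, GRAMD1A, SOAT1 and CPT1A in sip53 and of PAQR3 in siGYS1 fall outside that rule and were chosen after they were seen. Some items are not reported here.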

Additional observations from a re-analysis of the deposited data

How the results depend on the processing

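INSIG1 was called in both knockdowns under all 16 other settings, and 13 of the 18 sip53 calls and 4 of the 16 calls between the knockdowns (CYP51A1, EBP, ELOVL5 and FADS1) also held under all of them. The siGYS1 calls depended more on the setting. The 7 members called in siGYS1 became 4 with limma on log2(FPKM + 0.1), 2 with limma on log2(FPKM + 1) without a filter, 12 with length-corrected offsets and 16 with these offsets and the replicate block, and 2 to 11 with 1 library left out. The 2602 genes called in siGYS1 became 949 with limma without a filter, 1577 with the compared groups alone, 4110 with length-corrected offsets, 5070 with these offsets and the block, and 926 to 4260 with 1 library left out. Leaving out 1 library gave 4271 to 7621 genes and 13 to 21 members in sip53 (main 6605 and 18), and 3416 to 6337 genes and 6 to 14 members between the knockdowns (main 5745 and 16). Limma without a filter gave 8 members between the knockdowns. Among values called in the main fit or in the other setting, ACACA was the 1 that reversed. It was at -0.15 in siGYS1 with the block and the offsets (edgeR adjusted p = 0.0374), where the main value was 0.03. Values that were not called also changed sign between settings, such as SC5D in siGYS1 (-0.09 to 0.20) and DHCR7 in sip53 (-0.27 to 0.06). Of the medians of the 3 member sets, 36 moved by more than the spread between replicates over the comparisons and settings, and 108 did not. The sterol median between the knockdowns, 0.03, was 0.14 with limma on log2(FPKM + 1) and -0.09 without siGYS1 replicate 2, and the fatty acid median in siGYS1, -0.03, was 0.05 without siGYS1 replicate 2. The cause of these changes was not tested.

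The replicate numbers are shared by the groups, but the deviations of same-numbered libraries correlated at 0.28 (siGYS1 and NC), -0.02 (sip53 and NC) and 0.13 (siGYS1 and sip53) over genes, and with 2 pairs they were not taken as pairs. With the replicate block, 4662 genes and 10 members were called in siGYS1, 21 members in sip53 and 7202 genes and 19 members between the knockdowns.

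With 2 libraries a group, changes under about 0.3 on the log2 scale mostly did not pass. Deviations of log2 CPM followed the transcript length implied by reads and FPKM unequally (Spearman 0.54 in siGYS1 replicate 1, -0.39 in NC replicate 2, between -0.09 and 0.04 in the other 4), which the length-corrected offsets adjust for. When a library is left out, the lone library of its group is assumed to vary like the others.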
